A study of Mus musculus with 18 samples.

Results

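The genes described here are 35 genes of the integrated stress response in mouse bone marrow derived macrophages (BMDMs). They were chosen by gene name from a table of 55450 genes, by a rule that uses no measured value, though earlier results of these data were known when the set was chosen. The set holds 10 stress transcription factors, feedback genes and other genes of the response (Atf4, Atf5, Ddit3, Trib3, Chac1, Sesn2, Nupr1, Ppp1r15a, Eif4ebp1 and Vldlr), 4 amino acid transporters (Slc7a5, Slc3a2, Slc7a1 and Slc38a2), 8 enzymes of amino acid and one-carbon metabolism (Asns, Psat1, Phgdh, Psph, Shmt2, Mthfd2, Aldh18a1 and Pycr1), and 13 genes of tRNA charging and export (Aars, Cars, Eprs, Gars, Iars, Lars, Mars, Nars, Sars, Tars, Wars, Yars and Xpot). Of these, 33 reached the expression filter, at least 3 libraries with an FPKM (a level normalized for gene length and depth) no lower than 1, and were tested among 12025 genes, while Pycr1 and Vldlr did not. The name Ddit3 belongs to 2 gene IDs, of which ENSMUSG00000116429 held 1 to 2 counts per library and was left aside.

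Cells under amino acid shortage, endoplasmic reticulum stress, heme shortage or double-stranded RNA phosphorylate the translation initiation factor eIF2 alpha, which lowers protein synthesis in general while the mRNA of the transcription factor ATF4 is translated more. ATF4 and its partners then transcribe genes that import amino acids, make serine, asparagine and proline, and charge tRNAs, together with CHOP (Ddit3), TRIB3 and the GADD34 phosphatase subunit (Ppp1r15a), which feed back on the response. Because ATF4 itself is largely set by translation, the mRNA level of Atf4 is a poor measure of ATF4 protein, and only mRNA was measured here. In macrophages the same pathway is known to shape cytokine output and survival under metabolic stress.

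The study examined the NADase CD38 in macrophages exposed to monosodium urate (MSU) crystals, the crystals of gout. There were 6 groups of 3 libraries each. CD38KO + MSU and CD38KO non-treated BMDMs came from mice lacking CD38, and WT + MSU + apigenin, WT + apigenin, WT + MSU and WT non-treated BMDMs came from WT mice, both on the C57BL6/J background and of either sex. All cells had been grown in L929-conditioned medium and exposed for 24 h to GM-CSF (20 ng/ml) as a primer, the non-treated groups included, so that each comparison was made in primed cells. MSU crystals were given at 0.2 mg/ml for 6 h. Apigenin, a plant flavonoid that inhibits CD38 among other enzymes, was given at 25 µM, to WT cells alone. The ages of the mice were not given in the sources used here, and nothing states which libraries came from separate animals, so p-values measure the spread between these libraries.

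For the 6 apigenin libraries the sample titles and a treatment tag disagree on which 3 also received MSU. Groups follow the titles, which the column headings of the deposited table match. With the tag the 2 apigenin groups change places. Calls among the genes of the set and the interactions of Chac1 and Slc3a2 are given with the tag as well. Other results that rest on the split, those of the lists of other genes included, are given by the titles only. Their dependence on the choice of label is not shown here.

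Library totals were 51058336 to 83209648 counts. Levels are given as CPM, counts relative to the library total, after TMM scaling, a between-library scaling that takes most genes as unchanged. Scaling mattered for the apigenin groups, whose 6 TMM factors lay between 0.666 and 0.837, whereas the remaining 12 lay between 1.06 and 1.32. With library totals alone the median log2 fold change (log2FC) of all tested genes moved by -0.69 with apigenin alone and by -0.71 with apigenin under MSU, and by -0.13 in both comparisons of CD38KO with WT. The targeted gene, Cd38, had 0.303 to 1.17 CPM in CD38KO libraries and 18.5 to 93.4 CPM in WT libraries. Of the marker lists, 7 macrophage genes summed to 10517 CPM or more in every library. The 6 fibroblast genes summed to 82.5 to 316 CPM in CD38KO libraries and 574 to 6704 CPM in WT libraries, and the 4 endothelial genes to 3.28 to 14.7 CPM in CD38KO and 12.9 to 118 CPM in WT libraries. The 6 neutrophil genes summed to 8.37 to 22.5 CPM in CD38KO libraries, 137 to 317 CPM in replicates 1 and 2 of the WT groups and 8.22 to 25.0 CPM in replicate 3. B cell and T cell markers were at most 4.11 and 0.0903 CPM.

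A gene was called when its Benjamini-Hochberg adjusted p over all tested genes, from edgeR's quasi-likelihood test, was under 0.05 and its log2FC at least 1 in size. Each log2FC is given with its standard error.

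ATF4 binds with C/EBP partners at the C/EBP-ATF response element, and its core TGATGNAA was searched on both strands, the other strand reading TTNCATCA. The windows ran for 250 bases before to 50 bases after the transcription start (RefSeq, GRCm38.p6), and 29 of the 35 genes had one. The core was present for 11 of these 29 genes (37.9%), against 1219 of 27025 genes in all (4.51%). By windows, the counts were 11 of 33 (33.3%) and 1304 of 32851 (3.97%). The 11 genes were Trib3, Chac1, Nupr1, Vldlr, Asns, Pycr1, Aars, Gars, Iars, Tars and Yars. A match describes the letters only, since binding was not measured. The stretches below, 5′ to 3′ on the strand of the gene with the core in capitals, are shown for tested genes whose core lies upstream of the start. They lie at chr2:119351033-119351072 on the plus strand (Chac1), chr6:7693210-7693248 on the minus strand (Asns), chr7:126625557-126625596 on the minus strand (Nupr1), chr8:111033714-111033753 on the plus strand (Aars), chr6:55037955-55037994 on the plus strand (Gars) and chr15:11399659-11399689 on the minus strand (Tars).
Chac1: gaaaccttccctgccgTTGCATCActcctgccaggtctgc
Asns: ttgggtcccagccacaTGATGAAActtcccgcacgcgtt
Nupr1: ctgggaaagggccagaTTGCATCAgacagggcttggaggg
Aars: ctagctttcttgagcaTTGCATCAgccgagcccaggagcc
Gars: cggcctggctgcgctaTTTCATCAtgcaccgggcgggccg
Tars: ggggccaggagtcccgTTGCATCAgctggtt
Chac1, Nupr1, Aars and Tars share the letters TTGCATCA, and Asns carries the core in the other orientation. Read in the same orientation, Asns and Gars have the same letter at the N of the core, which differs from that of Chac1, Nupr1, Aars and Tars.

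Per kilobase, Atf4 had the highest mean level of the 35 genes in WT non-treated BMDMs, with an FPKM of 105, 126 and 199. Slc3a2, the heavy chain of several amino acid exchangers, followed with an FPKM of 72.96, 75.6 and 80.97, and the 2 ranges did not overlap. Atf5 with an FPKM of 49.7 ± 6.84 and the asparaginyl-tRNA synthetase Nars with 48.5 ± 2.42 (SD, n = 3) were next and overlapped. At the low end, Psph had an FPKM of 2.75 ± 0.18, the arginine transporter Slc7a1 2.68 ± 0.253 and Chac1 1.52 ± 0.46. The untested Pycr1, an enzyme of proline synthesis, and Vldlr, a lipoprotein receptor, had an FPKM of 0.363 ± 0.207 and 0.685 ± 0.312. In WT + MSU cells the first place went to Slc3a2, with an FPKM of 161, 189 and 239, against 96.5, 137 and 164 for Atf4, and the lowest Slc3a2 library was just under the highest Atf4 library.

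With MSU crystals in WT BMDMs, 3 of the 33 tested genes rose and 0 fell, against 2.03% of all tested genes called higher and 1.55% called lower. The 3 were Chac1, Slc3a2 and Slc7a1. By adjusted p alone 4 rose, the alanyl-tRNA synthetase Aars being the other, and 0 fell, against 3.66% and 3.36% of all genes. The median log2FC was 0.34 over the 33 genes, against -0.03 over all tested genes, and 27 of the 33 values were above 0.

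Chac1, which degrades glutathione and is a late target of ATF4 and CHOP, had 7.74, 12.2 and 10.9 CPM in WT + MSU cells, against 2.35, 2.61 and 1.61 CPM in WT non-treated cells. All 3 values with MSU were above all 3 without. The log2FC was 2.23 ± 0.45 (adjusted p = 0.0126). The call was lost without WT + MSU replicate 2 (adjusted p = 0.0505), WT non-treated replicate 1 (adjusted p = 0.0517) or WT non-treated replicate 3 (adjusted p = 0.0522).

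Among the transporters, Slc3a2 had 526, 609 and 864 CPM in WT + MSU cells, against 221, 226 and 278 CPM in WT non-treated cells, with a log2FC of 1.46 ± 0.21 (adjusted p = 0.00102). The lowest library with MSU was well above the highest one without. Slc7a1, which imports arginine and lysine, had 45.6, 57.6 and 73.8 CPM in WT + MSU cells, against 23.7, 26.98 and 32.3 CPM in WT non-treated cells, again without overlap. Its log2FC was 1.09 ± 0.21 (adjusted p = 0.00736), and it fell below a log2FC of 1 without WT + MSU replicate 3 (0.90), without WT non-treated replicate 1 (0.99) and with library totals (0.99). Slc7a5, the large neutral amino acid transporter that pairs with SLC3A2, had a log2FC of 0.67 ± 0.23 (adjusted p = 0.105), and the glutamine and alanine transporter Slc38a2 one of 0.78 ± 0.26 (adjusted p = 0.0949). For both of them every library with MSU was above every library without, but neither passed the test.

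Atf4 mRNA had 211, 294 and 395 CPM in WT + MSU cells, against 213, 251 and 457 CPM in WT non-treated cells. The 2 groups overlapped over most of their range, with a log2FC of -0.03 ± 0.37 (adjusted p = 0.985). Ddit3, which encodes CHOP, had 51.7, 38.8 and 46.9 CPM in WT + MSU cells, against 26.96, 25.3 and 31.4 CPM in WT non-treated cells, without overlap, but its log2FC of 0.71 ± 0.29 did not pass (adjusted p = 0.167). Trib3, a pseudokinase that restrains ATF4 and AKT, had 16.1, 14.7 and 22.3 CPM in WT + MSU cells, against 5.97, 5.55 and 11.2 CPM in WT non-treated cells (log2FC 1.23 ± 0.73, adjusted p = 0.393). Ppp1r15a, the inducible phosphatase subunit that reverses eIF2 alpha phosphorylation, had 97.7, 166 and 129 CPM in WT + MSU cells, against 43.3, 44.2 and 52.5 CPM in WT non-treated cells. Every library with MSU was above every library without, yet the log2FC of 1.49 ± 0.50 did not pass in the edgeR fit of all 6 groups (adjusted p = 0.0965). It was called by edgeR with the compared groups alone (log2FC 1.49, adjusted p = 0.0208) or without replicate 1 or 3 of WT + MSU + apigenin, and by DESeq2 (log2FC 1.51, adjusted p = 0.0281).

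**Figure D1:**
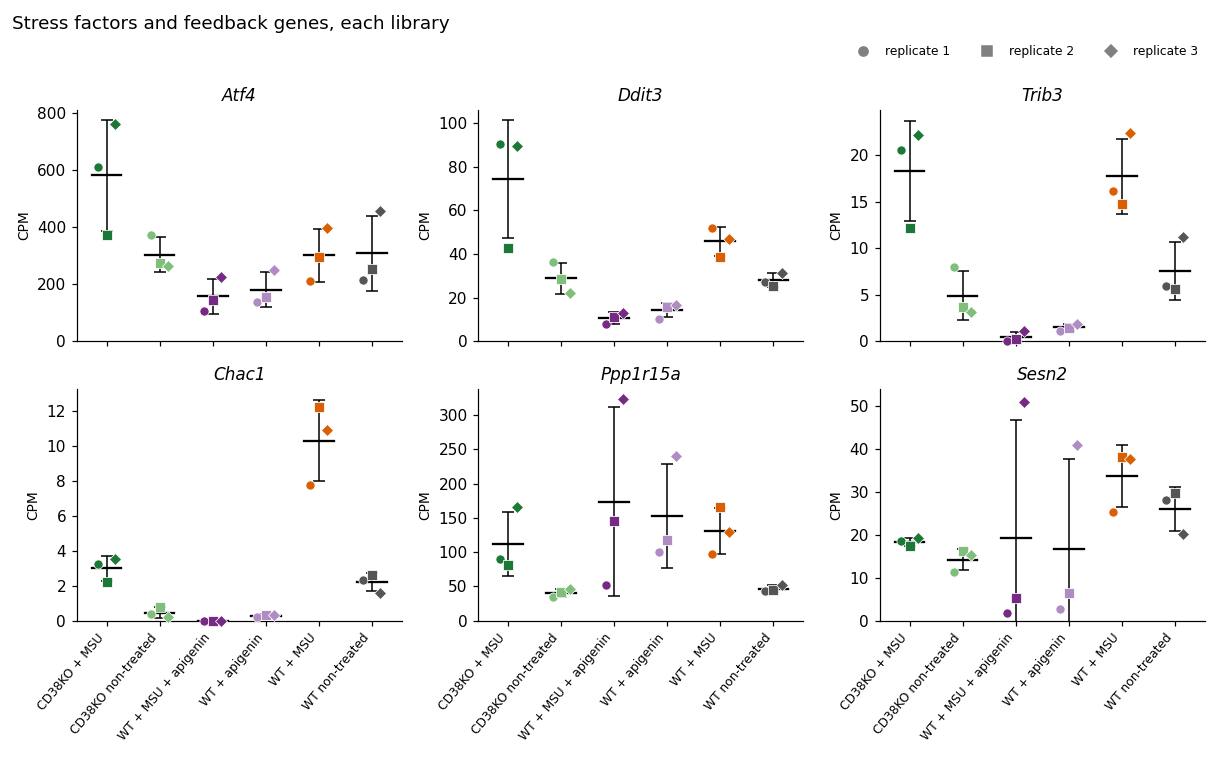
Levels of 6 stress factors, feedback genes and other genes of the response in every library. The vertical axis is CPM after TMM scaling, from 0; symbols mark replicates 1 to 3, horizontal lines the group mean and bars the SD (drawn down to 0). Chac1 was highest in the 3 WT + MSU libraries and at 0 counts in the 3 WT + MSU + apigenin libraries, and Sesn2 was high in replicate 3 of both apigenin groups.

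None of the 7 tested enzymes was called with MSU in WT cells. Mthfd2, the mitochondrial folate dehydrogenase, had 58.9, 54.6 and 109 CPM in WT + MSU cells, against 31.1, 29.1 and 59.6 CPM in WT non-treated cells, and asparagine synthetase (Asns) had 73.8, 71.3 and 133 CPM in WT + MSU cells, against 45.3, 46.95 and 87.5 CPM in WT non-treated cells. In both genes replicate 3 was the highest library of each group and the groups overlapped (log2FC 0.90 ± 0.34 and 0.63 ± 0.35, adjusted p = 0.134 and 0.346). The serine synthesis enzymes Phgdh, Psat1 and Psph had log2FC of 0.15, -0.24 and -0.11. Of the 13 genes of tRNA charging and export, 12 had a log2FC above 0 and none reached 1. Aars had 185, 204 and 267 CPM in WT + MSU cells, against 136, 126 and 143 CPM in WT non-treated cells, every library with MSU above every one without (log2FC 0.70 ± 0.17, adjusted p = 0.0273). The others ranged between -0.10 for Lars, the leucyl-tRNA synthetase, and 0.66 for Wars, the tryptophanyl-tRNA synthetase.

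**Figure D2:**
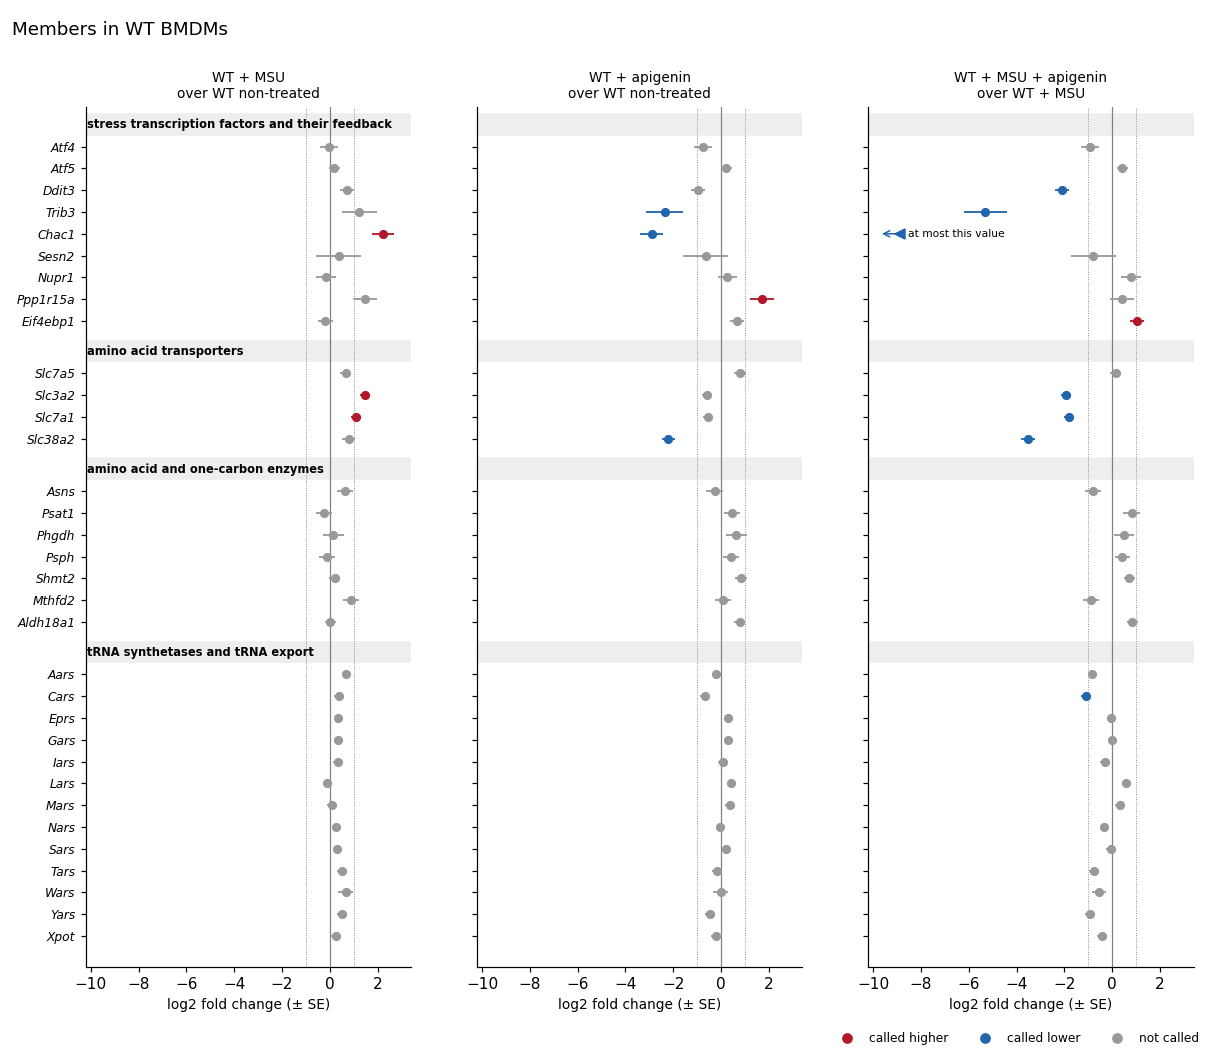
Log2 fold changes with standard errors of the 33 tested genes in WT BMDMs, by role, for WT + MSU over WT non-treated, WT + apigenin over WT non-treated and WT + MSU + apigenin over WT + MSU. Red and blue points were called higher and lower, dotted lines mark 1 and -1, and the triangle gives the bound for Chac1 (-8.86). The transporters Slc3a2, Slc7a1 and Slc38a2 lie right of 0 in the first panel and left of it in the other panels, and the tRNA synthetases lie between -1.09 and 0.70.

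With apigenin alone, 1 of the 33 genes rose and 3 fell, against 13.1% and 22.2% of all tested genes, so that the share called was below the background in both directions. Ppp1r15a rose, and Trib3, Chac1 and Slc38a2 fell. By adjusted p alone 6 rose and 7 fell, against 22.6% and 28.1%. The median log2FC was 0.06, against -0.02 over all tested genes.

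Chac1 had 0.22, 0.345 and 0.308 CPM in WT + apigenin cells, against 2.35, 2.61 and 1.61 CPM in WT non-treated cells, with a log2FC of -2.90 ± 0.48 (adjusted p = 0.000319). Trib3 had 1.12, 1.45 and 1.87 CPM in WT + apigenin cells, against 5.97, 5.55 and 11.2 CPM in WT non-treated cells, a log2FC of -2.35 ± 0.77 (adjusted p = 0.0194). Both genes were lower in all 3 apigenin libraries than in any non-treated one. The call of Trib3 was lost without WT + apigenin replicate 1 (adjusted p = 0.0661), WT + apigenin replicate 2 (adjusted p = 0.0527) or WT non-treated replicate 3 (adjusted p = 0.0613). Slc38a2 had 13.4, 24.3 and 27.9 CPM in WT + apigenin cells, against 111, 99.8 and 91.4 CPM in WT non-treated cells, far apart and with a log2FC of -2.20 ± 0.27 (adjusted p = 2.26e-05). Ppp1r15a went the other way, with 100.4, 118 and 240.3 CPM in WT + apigenin cells, against 43.3, 44.2 and 52.5 CPM in WT non-treated cells. Its log2FC was 1.71 ± 0.51 (adjusted p = 0.0115). Replicate 3 with apigenin was the highest, and the call was lost without it (log2FC 1.23, adjusted p = 0.0642) and with library totals (log2FC 0.96, adjusted p = 0.0945).

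Under a log2FC of 1 in size, Ddit3 had 10.4, 15.6 and 16.7 CPM in WT + apigenin cells, against 26.96, 25.3 and 31.4 CPM in WT non-treated cells, without overlap (log2FC -0.97 ± 0.29, adjusted p = 0.0118). Slc3a2 (-0.58), Slc7a1 (-0.54) and the cysteinyl-tRNA synthetase Cars (-0.68) were also lower by adjusted p. Shmt2, which makes glycine and one-carbon units in mitochondria, was higher by adjusted p (0.83), as were Aldh18a1, which starts proline synthesis (0.78), Slc7a5 (0.79), Lars (0.43) and the glutamyl-prolyl-tRNA synthetase Eprs (0.31). With library totals these 5 were at 0.17, 0.10, 0.12, -0.25 and -0.38, so Lars and Eprs changed sign. Sesn2, a leucine sensor and inhibitor of mTORC1, split by library, with 2.79, 6.35 and 40.98 CPM in WT + apigenin cells, against 28.2, 29.8 and 20.3 CPM in WT non-treated cells. Replicate 3 was above all non-treated libraries and replicates 1 and 2 below them all (log2FC -0.64 ± 0.94, adjusted p = 0.589).

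With apigenin under MSU, 1 gene rose and 7 fell, against 18% and 25.8% of all tested genes. Eif4ebp1 rose, and Chac1, Trib3, Slc38a2, Ddit3, Slc3a2, Slc7a1 and Cars fell. By adjusted p alone 4 rose and 12 fell, against 26.7% and 32.1%. The share of the 33 genes called lower was near that of all genes. The median log2FC was -0.35, against -0.05 over all tested genes, and it is the same with Chac1 at its bound. The WT + MSU libraries are shared with the MSU comparison, so the genes called higher with MSU had high values in those libraries in both comparisons, and the fall of these genes here is not independent of their rise there. The 7 macrophage markers summed to 47344 to 60632 CPM in WT + MSU + apigenin cells and 17287 to 17979 CPM in WT + MSU cells, and to 45136 to 58416 CPM in WT + apigenin cells, against 18750 to 22769 CPM in WT non-treated cells. The fibroblast markers summed to 1829 to 6704 CPM in WT + MSU + apigenin cells and 649 to 3827 CPM in WT + MSU cells, and to 1526 to 6116 CPM in WT + apigenin cells, against 574 to 2643 CPM in WT non-treated cells. The part of these cells in the apigenin comparisons was not tested.

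Chac1 had 0 counts in all 3 WT + MSU + apigenin libraries, against 7.74, 12.2 and 10.9 CPM in WT + MSU cells. Taking a floor of 3 counts over the group, 0.0221 CPM, the gene was at least 466-fold lower (adjusted p = 3.62e-07). Trib3 had 0, 0.209 and 1.10 CPM in WT + MSU + apigenin cells, against 16.1, 14.7 and 22.3 CPM in WT + MSU cells, with a log2FC of -5.31 ± 0.89 (adjusted p = 0.00015). In replicate 1 of the WT + MSU + apigenin group no read of Trib3 was counted. Ddit3 had 7.89, 11.02 and 12.99 CPM in WT + MSU + apigenin cells, against 51.7, 38.8 and 46.9 CPM in WT + MSU cells, and a log2FC of -2.11 ± 0.30 (adjusted p = 3.67e-05). In each of these genes, all of them CHOP or targets of ATF4 and CHOP, the groups were far apart. Atf4 itself had 105, 143 and 225 CPM in WT + MSU + apigenin cells, against 211, 294 and 395 CPM in WT + MSU cells. The highest library with apigenin overlapped the lowest without, and the log2FC of -0.93 ± 0.37 passed by adjusted p alone (0.0427).

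The group is not uniform, since Ppp1r15a had 51.4, 145 and 323 CPM in WT + MSU + apigenin cells, against 97.7, 166 and 129 CPM in WT + MSU cells (log2FC 0.41 ± 0.49, adjusted p = 0.495). Sesn2 had 1.89, 5.22 and 51.01 CPM in WT + MSU + apigenin cells, against 25.3, 38.1 and 37.6 CPM in WT + MSU cells (log2FC -0.80 ± 0.94, adjusted p = 0.483). Both genes were lowest in replicate 1 and highest in replicate 3 of the apigenin group, beyond the WT + MSU libraries at both ends. Eif4ebp1, which encodes the translation repressor 4E-BP1, had 99.00, 144 and 78.5 CPM in WT + MSU + apigenin cells, against 45.7, 53.5 and 57.1 CPM in WT + MSU cells, with no overlap. Its log2FC of 1.04 ± 0.31 (adjusted p = 0.00959) became 0.35 with library totals, 0.77 without WT + MSU + apigenin replicate 2 (adjusted p = 0.0549) and 0.95 without WT + MSU replicate 1. The stress regulators Atf5 and Nupr1, both targets of ATF4, had log2FC of 0.43 ± 0.23 and 0.79 ± 0.40 and did not pass.

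Of the 4 transporters, 3 fell. Slc38a2 had 10.9, 13.2 and 20.9 CPM in WT + MSU + apigenin cells, against 141, 178 and 202 CPM in WT + MSU cells, a log2FC of -3.53 ± 0.29 (adjusted p = 4.43e-07). Slc3a2 had 151, 218 and 157 CPM in WT + MSU + apigenin cells, against 526, 609 and 864 CPM in WT + MSU cells (log2FC -1.92 ± 0.21, adjusted p = 3.76e-06). Slc7a1 had 14.7, 16.5 and 19.7 CPM in WT + MSU + apigenin cells, against 45.6, 57.6 and 73.8 CPM in WT + MSU cells (log2FC -1.80 ± 0.22, adjusted p = 8.7e-06). In all 3 genes every library with apigenin was below every library without. Slc7a5, the light chain that works with SLC3A2, had 56.1, 67.6 and 45.9 CPM in WT + MSU + apigenin cells, against 37.1, 58.2 and 58.1 CPM in WT + MSU cells, with overlap and a log2FC of 0.15 ± 0.23 (adjusted p = 0.608).

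**Figure D3:**
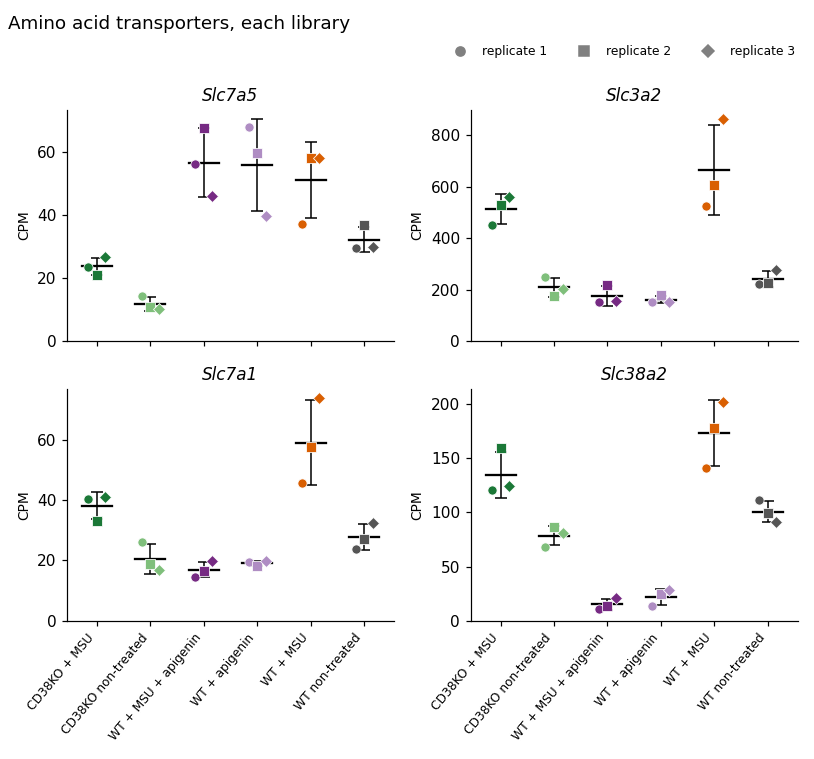
Levels of the 4 amino acid transporters in every library. The vertical axis is CPM after TMM scaling, from 0; symbols mark replicates 1 to 3, horizontal lines the group mean and bars the SD. Slc38a2 lay between 10.9 and 27.9 CPM in the 6 apigenin libraries and at 68.5 CPM or more in the other 12, while Slc7a5 was lowest in the CD38KO libraries.

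None of the 7 tested enzymes was called with apigenin under MSU, and they were split in direction. Shmt2 had 75.1, 92.9 and 63.7 CPM in WT + MSU + apigenin cells, against 39.4, 55.9 and 46.1 CPM in WT + MSU cells, and Aldh18a1 had 42.3, 45.7 and 34.03 CPM in WT + MSU + apigenin cells, against 18.05, 25.1 and 25.2 CPM in WT + MSU cells. Both were higher in every apigenin library and passed by adjusted p alone (log2FC 0.71 ± 0.24 and 0.84 ± 0.23, adjusted p = 0.0187 and 0.00682). With library totals they were at 0.01 and 0.14. Mthfd2 had 41.8, 43.6 and 35.8 CPM in WT + MSU + apigenin cells, against 58.9, 54.6 and 109 CPM in WT + MSU cells, lower in every apigenin library (log2FC -0.88 ± 0.34, adjusted p = 0.0358). Asns had 52.9, 62.5 and 43.3 CPM in WT + MSU + apigenin cells, against 73.8, 71.3 and 133 CPM in WT + MSU cells (log2FC -0.81 ± 0.35, adjusted p = 0.0581).

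Among the tRNA synthetases, Cars fell, with 36.4, 40.8 and 29.1 CPM in WT + MSU + apigenin cells, against 63.6, 66.4 and 95.6 CPM in WT + MSU cells. The groups did not overlap, and the log2FC was -1.09 ± 0.21 (adjusted p = 0.000498). It lay just past the threshold and was -0.96 without WT + MSU + apigenin replicate 3, -0.88 without WT + MSU replicate 3 and -0.96 with upper-quartile factors. Aars (-0.83), the tyrosyl-tRNA synthetase Yars (-0.93) and the threonyl-tRNA synthetase Tars (-0.77) were lower by adjusted p alone. Lars had 94.6, 87.7 and 104 CPM in WT + MSU + apigenin cells, against 60.9, 66.7 and 65.6 CPM in WT + MSU cells, and was higher in every apigenin library (log2FC 0.57 ± 0.15, adjusted p = 0.00536). Its log2FC was -0.15 with library totals, so its direction depends on the scaling. The remaining 8, Eprs, Gars, Iars, Mars, Nars, Sars, Wars and the tRNA exporter Xpot, lay between -0.55 and 0.31 and did not pass.

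**Figure D4:**
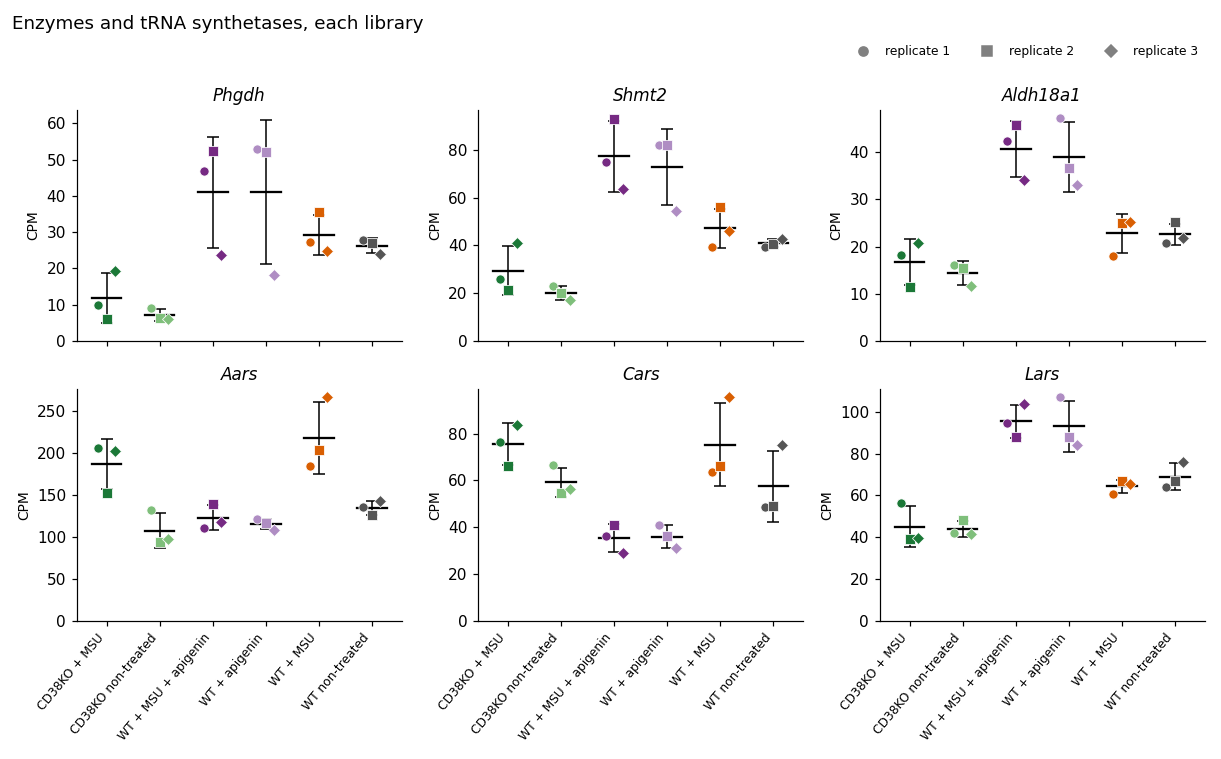
Levels of 3 metabolic enzymes and 3 tRNA synthetases in every library. The vertical axis is CPM after TMM scaling, from 0; symbols mark replicates 1 to 3, horizontal lines the group mean and bars the SD. Phgdh lay between 6.02 and 19.4 CPM in the CD38KO libraries and between 18.2 and 52.9 CPM in the WT libraries, and Cars was lowest with apigenin.

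Over the 33 genes, 17 had a log2FC above 0 with apigenin alone under TMM and 6 under library totals, and with apigenin under MSU the counts were 13 and 5. Under library totals 0 rose and 9 fell with apigenin alone, and 0 rose and 17 fell with apigenin under MSU. The median log2FC of all tested genes was then -0.72 and -0.76, against -0.02 and -0.05 under TMM. These counts therefore include a shift of all genes, and the share of all genes called in that setting is not given here. Grouped by the treatment tag, the calls with apigenin alone were those above plus Ddit3, with a log2FC of -1.39. With the tag, Trib3 had a log2FC of -4.08 and Slc38a2 one of -2.75. Under MSU the tag kept the 7 genes called lower and lost Eif4ebp1 (0.86).

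The effect of MSU differed by apigenin for 2 of the 33 genes, both negatively, against 1.05% of all tested genes called in either direction in this interaction. For Slc3a2 the interaction was -1.35 ± 0.29 on the log2 scale (adjusted p = 0.0376). The gene had 176 ± 37.3 CPM in WT + MSU + apigenin cells and 162 ± 14.9 CPM in WT + apigenin cells (SD, n = 3 each), against 666 ± 176 CPM in WT + MSU cells and 242 ± 31.7 CPM in WT non-treated cells. The call was lost, at an adjusted p of 0.059 to 0.0927, without any one of 8 libraries, namely WT + MSU + apigenin replicate 1, replicates 2 and 3 of WT + MSU, replicates 1 and 2 of WT non-treated, CD38KO non-treated replicate 3, and either of replicates 1 and 2 of WT + apigenin. It was also lost by edgeR with the compared groups alone (adjusted p = 0.0781). For Chac1, MSU went with a level at least 13.2-fold lower in apigenin-treated cells, where the group with MSU was at 0 counts and WT + apigenin cells had 0.22, 0.345 and 0.308 CPM. In cells without apigenin the same crystals went with the rise given above. The adjusted p of the Chac1 interaction was 0.00239. With the treatment tag its sign turned (5.15, adjusted p = 0.0476), since the libraries at 0 counts then carry the label without MSU, while Slc3a2 stayed at -1.58 (adjusted p = 0.0165). Slc7a1 (-1.26 ± 0.30, adjusted p = 0.0507) and Slc38a2 (-1.33 ± 0.37, adjusted p = 0.101) were near the threshold, and with the replicate block Slc7a1 was called (-1.27, adjusted p = 0.0424).

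With MSU in CD38KO BMDMs, 4 of the 33 genes rose and 0 fell, against 1.52% and 0.482% of all tested genes. The 4 were Chac1, Ddit3, Slc3a2 and Slc7a5. By adjusted p alone 6 rose, with Slc7a1 and Aars besides, and 0 fell, against 2.06% and 1.11%. The median log2FC was 0.55, against -0.01 over all tested genes, and 32 of the 33 were above 0. Chac1 had 3.25, 2.19 and 3.54 CPM in CD38KO + MSU cells, against 0.392, 0.79 and 0.2 CPM in CD38KO non-treated cells, without overlap (log2FC 2.69 ± 0.47, adjusted p = 0.00952). Slc3a2 had 451, 529 and 561 CPM in CD38KO + MSU cells, against 249, 176 and 201 CPM in CD38KO non-treated cells, also apart (log2FC 1.30 ± 0.21, adjusted p = 0.00399). By edgeR with the compared groups alone Slc3a2 kept its call, while those of Chac1 (adjusted p = 0.0768), Ddit3 (0.102) and Slc7a5 (0.0659) were lost.

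Ddit3 had 90.4, 42.9 and 89.6 CPM in CD38KO + MSU cells, against 36.1, 28.3 and 22.1 CPM in CD38KO non-treated cells (log2FC 1.37 ± 0.29, adjusted p = 0.0208). Replicate 2 with MSU stood closer to the non-treated libraries than the other two. The call of Ddit3 was lost without CD38KO + MSU replicate 1 (adjusted p = 0.0669) or 3 (0.0792) and without CD38KO non-treated replicate 2 (0.0965) or 3 (0.121). Slc7a5 had 23.5, 21.1 and 26.5 CPM in CD38KO + MSU cells, against 14.2, 10.8 and 10.04 CPM in CD38KO non-treated cells, without overlap (log2FC 1.02 ± 0.24, adjusted p = 0.0305). Its call was lost without CD38KO + MSU replicate 1 (adjusted p = 0.0639) or 3 (0.0961), without CD38KO non-treated replicate 2 (0.138) or 3 (0.15), and with library totals (0.093). Atf4 had 609.5, 372 and 759.5 CPM in CD38KO + MSU cells, against 372, 274 and 263 CPM in CD38KO non-treated cells, which touched at the ends and did not pass (log2FC 0.94 ± 0.37, adjusted p = 0.199). Trib3 had 20.5, 12.2 and 22.2 CPM in CD38KO + MSU cells, against 7.98, 3.63 and 3.10 CPM in CD38KO non-treated cells (log2FC 1.90 ± 0.75, adjusted p = 0.198).

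Between genotypes without MSU, 0 of the 33 genes were higher and 5 lower in CD38KO BMDMs, against 0.366% and 3.96% of all tested genes. The 5 were Chac1, Nupr1, Phgdh, Shmt2 and Slc7a5, and the median log2FC was -0.30, against 0.04 over all tested genes. Slc7a5 had 14.2, 10.8 and 10.04 CPM in CD38KO non-treated cells, against 29.7, 36.9 and 29.97 CPM in WT non-treated cells (log2FC -1.46 ± 0.24, adjusted p = 0.00189). Nupr1, a small stress-induced chromatin protein, had 6.32, 9.07 and 4.23 CPM in CD38KO non-treated cells, against 37.3, 32.8 and 29.03 CPM in WT non-treated cells (log2FC -2.34 ± 0.42, adjusted p = 0.00377). Chac1 had 0.392, 0.79 and 0.2 CPM in CD38KO non-treated cells, against 2.35, 2.61 and 1.61 CPM in WT non-treated cells (log2FC -2.24 ± 0.46, adjusted p = 0.0107). All 3 genes were lower in every CD38KO library. The call of Chac1 was lost without CD38KO non-treated replicate 1 (adjusted p = 0.0599) and by edgeR with the compared groups alone (adjusted p = 0.0974).

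Phgdh, the first enzyme of serine synthesis, had 9.07, 6.32 and 6.10 CPM in CD38KO non-treated cells, against 27.9, 27.04 and 23.96 CPM in WT non-treated cells (log2FC -1.88 ± 0.44, adjusted p = 0.0211). Shmt2 had 22.9, 20.05 and 17.3 CPM in CD38KO non-treated cells, against 39.4, 40.6 and 42.6 CPM in WT non-treated cells (log2FC -1.02 ± 0.24, adjusted p = 0.0194). Neither gene overlapped between genotypes. The call of Phgdh was lost without CD38KO non-treated replicate 2 (adjusted p = 0.0924) or 3 (0.109) and without WT non-treated replicate 1 (0.0631) or 2 (0.059). That of Shmt2 was lost without CD38KO non-treated replicate 2 (adjusted p = 0.0696) or 3 (0.109) and without WT non-treated replicate 2 (0.056) or 3 (log2FC -0.99). The untested Vldlr followed the same order, with 0.974, 0.816 and 0.214 CPM in CD38KO non-treated cells, against 7.86, 7.01 and 3.23 CPM in WT non-treated cells. The other enzymes of serine synthesis, Psat1 and Psph, had log2FC of -0.13 ± 0.34 and -0.51 ± 0.32 and did not pass.

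With MSU in both genotypes, 0 genes were higher and 2 lower in CD38KO BMDMs, against 0.715% and 2.65% of all tested genes, with a median log2FC of -0.22, against 0.03. Chac1 had 3.25, 2.19 and 3.54 CPM in CD38KO + MSU cells, against 7.74, 12.2 and 10.9 CPM in WT + MSU cells (log2FC -1.78 ± 0.44, adjusted p = 0.0423). Slc7a5 had 23.5, 21.1 and 26.5 CPM in CD38KO + MSU cells, against 37.1, 58.2 and 58.1 CPM in WT + MSU cells (log2FC -1.11 ± 0.24, adjusted p = 0.02). Both genes were lower in each CD38KO + MSU library than in any WT + MSU library. The call of Chac1 was lost, at an adjusted p of 0.054 to 0.18, without any one of the CD38KO + MSU or WT + MSU libraries, WT + apigenin replicate 2, or WT non-treated replicate 1 or 2. That of Slc7a5 was lost without CD38KO + MSU replicate 1 (adjusted p = 0.105) or WT + MSU replicate 2 (0.0995). By edgeR with the compared groups alone the calls of Chac1 (adjusted p = 0.0627) and Slc7a5 (0.0745) were both lost. Wars had 15.3, 21.4 and 14.2 CPM in CD38KO + MSU cells, against 54.8, 24.9 and 30.2 CPM in WT + MSU cells, where replicate 1 stood apart (log2FC -1.11 ± 0.31, adjusted p = 0.0533).

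In bulk RNA, fewer cells of a type and less RNA per cell cannot be told apart. The 6 fibroblast markers were all called lower in CD38KO non-treated cells than in WT non-treated cells (median log2FC -4.00), and 4 of the 6 were with MSU (median log2FC -2.76), beside the 5 and 2 genes above. Within WT cells the fibroblast sum was lowest in replicate 3 of each group. It was 2187, 2643 and 574 CPM in WT non-treated cells, where Phgdh had 27.9, 27.04 and 23.96 CPM and Vldlr 7.86, 7.01 and 3.23 CPM. Nupr1 and Chac1 were also lowest in replicate 3 there (29.03 and 1.61 CPM). Shmt2 (39.4, 40.6 and 42.6 CPM) and Slc7a5 (29.7, 36.9 and 29.97 CPM) were not. In WT + MSU cells the fibroblast sum was 1433, 3827 and 649 CPM, where Phgdh had 27.2, 35.4 and 24.9 CPM and Vldlr 4.79, 9.35 and 1.72 CPM. Nupr1 was also lowest in replicate 3 there (23.2 CPM), while Shmt2, Slc7a5 and Chac1 were lowest in replicate 1 (39.4, 37.1 and 7.74 CPM). WT + apigenin cells, which neither genotype comparison uses, had fibroblast sums of 6116, 4692 and 1526 CPM. There Phgdh had 52.9, 52.1 and 18.2 CPM and Vldlr 12.6, 10.7 and 5.87 CPM. Shmt2 and Slc7a5 were also lowest in replicate 3 (54.5 and 39.5 CPM), while Nupr1 and Chac1 were lowest in replicate 1 (30.6 and 0.22 CPM). The part of other cell types in these values was not tested. Replicate 3 of the WT groups had neutrophil marker sums like those of the CD38KO libraries. Its fibroblast sums, 574 to 1829 CPM, were still above the 82.5 to 316 CPM of the CD38KO libraries. With each WT group reduced to replicate 3, only 1 WT library a group remained, so sizes of change alone are given. The log2FC without MSU were then -1.36 for Slc7a5, -2.15 for Nupr1, -1.74 for Phgdh, -1.08 for Shmt2 and -1.80 for Chac1.

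No difference between the genotypes in the change with MSU was called for any of the 33 genes, and 0% of all tested genes were called in that interaction. In edgeR 427 of the 12025 genes and 1 of the 33 had an unadjusted p under 0.05, DESeq2 called 20 genes and limma 1, and none of these was among the 33. The interaction was 0.46 ± 0.61 for Chac1, -0.16 ± 0.29 for Slc3a2 and 0.35 ± 0.33 for Slc7a5 on the log2 scale. For Nupr1 it was 1.42 ± 0.57, with log2FC with MSU of 1.26 in CD38KO and -0.16 in WT cells.

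**Figure D5:**
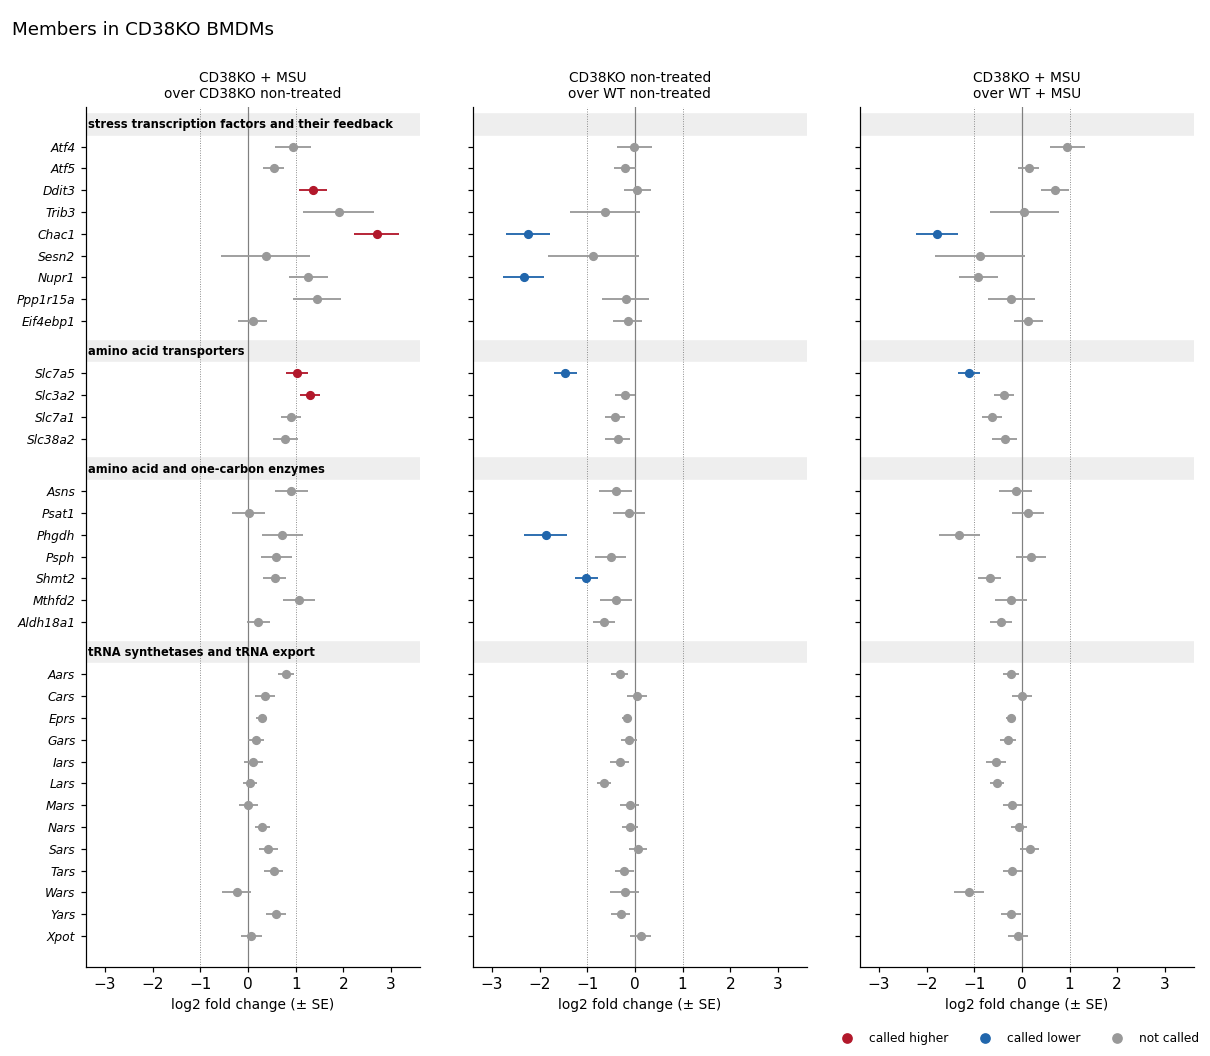
Log2 fold changes with standard errors of the 33 tested genes, by role, for CD38KO + MSU over CD38KO non-treated, CD38KO non-treated over WT non-treated and CD38KO + MSU over WT + MSU. Red and blue points were called higher and lower, and dotted lines mark 1 and -1. With MSU 32 of 33 values lie right of 0, and no gene was called higher in CD38KO than in WT cells.

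Genes around the 35 were described from 6 lists. Of 19 other known ATF4 targets, 14 were tested, and 5 rose and 0 fell with MSU in WT cells (median log2FC 0.78), against 2.03% and 1.55% of all tested genes. The 4 with the largest change were Slc7a11, the cystine importer (2.93), the cytokine Gdf15 (2.28), the ATF4 partner Cebpb (1.61) and the autophagy receptor Sqstm1 (1.52). In CD38KO cells 4 rose with MSU, against 1.52% of all tested genes, with Slc7a11 at 2.67. With apigenin under MSU 0 rose and 8 fell (median log2FC -1.49), against 18% and 25.8% of all tested genes. The falls, set against the WT + MSU libraries that the MSU comparison also uses, were led by Slc7a11 (-3.65), Cebpb (-3.63), Sqstm1 (-3.50) and the stress factor Atf3 (-3.22). With apigenin alone 0 rose and 5 fell (median log2FC -0.28), against 13.1% and 22.2% of all tested genes, led by Cebpg (-3.18) and Atf3 (-2.46). Slc7a11 had 16.3, 22.6 and 14.1 CPM in WT + MSU + apigenin cells, against 149, 229 and 287 CPM in WT + MSU cells, so the groups were far apart. Its interaction of MSU with apigenin was called as well (-3.39 ± 0.63, adjusted p = 0.0179), as was that of Sqstm1 (-1.76 ± 0.25, adjusted p = 0.00509). In CD38KO cells 3 were lower in each comparison with WT, against 3.96% of all tested genes without MSU and 2.65% with it, Ddit4, an mTORC1 inhibitor, having the largest change (-2.81 without and -2.49 with MSU).

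A list of 14 genes, all tested, held kinases and phosphatase subunits of eIF2 alpha, eIF2 alpha itself, the eIF2B subunits and other regulators of the response. Of these 0 rose and 5 fell in each apigenin comparison, against 22.2% of all tested genes called lower with apigenin alone and 25.8% under MSU. The median log2FC was -0.56 with apigenin alone and -0.74 under MSU. The genes that fell included the adaptor Nck1 (-2.46 with apigenin alone and -3.04 under MSU), the constitutive phosphatase subunit Ppp1r15b (-2.33 and -3.04) and Impact, an inhibitor of the kinase GCN2 (-1.25 and -2.48). With library totals 9 and 10 of the 14 fell, in a setting where the median log2FC of all tested genes was -0.72 and -0.76. The share of all tested genes called lower in that setting is not given here, so these counts cannot be set against it. None was called with MSU in WT cells, against 2.03% and 1.55% of all tested genes called higher and lower. In CD38KO cells 1 was called higher with MSU, against 1.52% of all tested genes.

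Of 11 further cytosolic tRNA synthetases and their scaffold proteins, 1 rose with MSU in WT cells, the arginyl-tRNA synthetase Rars. Of all tested genes, 2.03% were called higher with MSU in WT and 1.52% in CD38KO cells. Rars had 176, 191 and 214 CPM in WT + MSU cells, against 79.5, 83.4 and 88.9 CPM in WT non-treated cells, well apart (log2FC 1.21 ± 0.16, adjusted p = 0.000819), and was also called in CD38KO cells (1.10). With apigenin under MSU it fell (-1.72), together with the scaffold genes Aimp2 (-1.59) and Eef1e1 (-1.47), while Qars (1.36) and Vars (1.02) rose. With apigenin alone 1 of the 11 rose, Kars (1.18), and 0 fell. All tested genes were called higher and lower at 13.1% and 22.2% with apigenin alone and at 18% and 25.8% under MSU. With library totals 0 rose in either apigenin comparison, where 2.75% and 6.66% of the calls over all genes were higher. Of 17 mitochondrial tRNA synthetases 12 were tested, and none was called with MSU, while 1 rose and 2 fell with apigenin alone and 2 rose and 1 fell with apigenin under MSU, no larger shares than those of all tested genes.

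The ATF6 and XBP1 branch of the unfolded protein response controls chaperones of the endoplasmic reticulum apart from ATF4. With MSU 0 of its 20 genes were called in either genotype. Of all tested genes, 2.03% were called higher and 1.55% lower in WT, and 1.52% and 0.482% in CD38KO cells, so few calls were to be had. With apigenin alone 10 rose and 2 fell, against 13.1% and 22.2% of all tested genes, and with apigenin under MSU 8 rose and 3 fell, against 18% and 25.8%. The disulfide isomerase Pdia4 had 450.4, 507 and 735 CPM in WT + MSU + apigenin cells, against 123, 138 and 147 CPM in WT + MSU cells (log2FC 2.05 ± 0.24, adjusted p = 6.47e-06). Pdia6 (1.83 alone, 1.68 under MSU) rose too, and the transcription factor Xbp1 fell (-2.55 and -3.70). With library totals 4 of the 20 rose and 5 fell with apigenin alone, and 1 rose and 6 fell under MSU. Of all calls in that setting, 2.75% were higher with apigenin alone and 6.66% under MSU, against 37.1% and 41.1% under TMM. The higher counts of this list and the share of higher calls over all genes were both smaller with library totals. How much of the list's counts goes with the scaling was not tested. Of 10 further folate enzymes, 3 rose and 0 fell with apigenin alone, and 3 rose and 1 fell with apigenin under MSU, and with library totals none rose.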

How the data were processed

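Poly(A) RNA of the 18 BMDM libraries was sequenced from stranded libraries. Tools named in the submitters' notes on processing are HISAT2, StringTie, edgeR, cutadapt and FastQC. Versions and genome build were not given in the sources used here. In 1 table the authors deposited, for each gene and library, a raw count and an FPKM, which they normalized for gene length and depth. A second deposited table of the authors' own log2 fold changes was not used. Every column belonged to 1 library (0 columns were unassigned).

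For the 12025 genes with 3 or more libraries at an FPKM of 1 or higher, differential expression was computed from the counts with edgeR 4.0.16 under R 4.3.3 (TMM, 1 quasi-likelihood fit of the 6 groups, Benjamini-Hochberg adjustment over all tested genes), after tests on simulated data. The SE is the size of the log2FC over the root of its F value. CPM used TMM-scaled totals of the tested genes. Where libraries had no reads, a floor of 3 counts over the group was used, and totals and floors cover counting error only. The members and the gene lists were chosen with earlier results of these data known. Values per library are given for genes called in any comparison or interaction and for genes that open a role group, and from each list at most 4 called genes, largest change first. Other values were chosen after they were seen.

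Alternatives were DESeq2 1.42.0, limma 3.58.1 on log2(FPKM + 0.5) and log2(FPKM + 0.1), library totals, upper-quartile factors, other filters, the compared groups alone, a replicate block, leaving out each library, WT groups of replicate 3 only, adjusted p alone and the treatment tag.

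Replicate numbers come from the sample titles. The deviations of same-numbered libraries from their group means correlated at 0.337, 0.266 and 0.584 for apigenin alone. For apigenin under MSU they correlated at 0.142, 0.397 and 0.436, and for MSU in WT cells at 0.0809, 0.477 and 0.54. For apigenin under MSU and MSU in WT, the best partner of each treated library had its own number. With apigenin alone, WT + apigenin replicate 1 correlated best with WT non-treated replicate 2. Comparisons with CD38KO cells held negative values, so there the numbers do not pair the libraries. Elsewhere a pairing by number is a hint from the data only.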

Additional observations from a re-analysis of the deposited data

Results flagged for a closer look

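The change with MSU differed between WT cells with and without apigenin, by the test of the interaction in edgeR, for Chac1 and Slc3a2. For Chac1 the fitted interaction was -9.61 on the log2 scale (adjusted p = 0.00239), a fitted value that is no bound because all 3 WT + MSU + apigenin libraries had 0 counts. For Slc3a2 it was -1.35 (adjusted p = 0.0376).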

How the results depend on the processing

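Counts of genes called are given here where another setting moved them by over 1.5 times, with the cause not tested unless stated. Library totals and limma on log2(FPKM + 0.5) or log2(FPKM + 0.1) each gave 0 higher and 9 lower with apigenin alone and 0 higher and 17 lower with apigenin under MSU. Only the library totals change the scaling alone, since limma changes the test as well. With library totals the median log2FC of all tested genes was -0.72 with apigenin alone and -0.76 with apigenin under MSU. Over all tested genes the share of calls that were higher was 37.1% by TMM and 2.75% by library totals with apigenin alone, and 41.1% and 6.66% with apigenin under MSU, and in the comparisons of MSU alone in WT it was 56.7% and 46.1%. For the interaction of MSU and apigenin, upper-quartile factors moved that share to 48.6%, against 34.1%. Adjusted p alone gave 6 higher and 7 lower with apigenin alone and 4 higher and 12 lower with apigenin under MSU. DESeq2 gave 7 higher with MSU in CD38KO, 4 lower in CD38KO under MSU and 4 lower in the interaction of MSU and apigenin, and the compared groups alone gave 1, 0 and 1, with fewer libraries in the fit. No filter on low values gave 2 higher with apigenin alone and 0 higher with apigenin under MSU, and 1 lower both in CD38KO under MSU and in the interaction. The filterByExpr filter gave 2 higher with apigenin alone and 1 lower both in CD38KO under MSU and in that interaction. WT groups of replicate 3 only also moved several counts, but left 1 library in each WT group, so these counts are not given. With the treatment tag 0 were higher with apigenin under MSU, 1 higher and 1 lower in the interaction, and Chac1 reversed there (5.15). Leaving out 1 library gave 1 to 4 higher with MSU in WT, 2 to 5 higher with MSU in CD38KO, 2 to 6 lower with apigenin alone, 0 to 2 higher with apigenin under MSU, 3 to 5 lower in CD38KO non-treated, 0 to 3 lower in CD38KO under MSU and 1 to 5 lower in the interaction. With the replicate block 4 were higher with MSU in WT, 5 higher with MSU in CD38KO, 3 lower in CD38KO under MSU and 3 lower in the interaction, gaining Ppp1r15a, Nupr1, Wars and Slc7a1, and the block lost no call. For MSU in WT, where Ppp1r15a was gained (adjusted p = 0.0274), every library correlated best with its own number, a hint from the data and not from the design. Totals of 51058336 to 83209648 counts leave genes near 0 counts, such as Chac1 and Trib3 with apigenin, the least precise.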
